A study of Homo sapiens with 12 samples.

Results

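The averaged effect of TMEM216 is the difference between MDA-231-LM2 cells labelled TMEM216 and those labelled Ctrl, taken over both IGF1 conditions with equal weight. Its members are all 12 of the 12 libraries in the series. The 6 libraries on the TMEM216 side comprised 3 labelled TMEM216 and 3 labelled TMEM216+IGF1, and the 6 on the Ctrl side comprised 3 labelled Ctrl and 3 labelled Ctrl+IGF1. Taking each side over both conditions leaves the effect of IGF1 itself out of the difference. MDA-231-LM2 is a subline of MDA-MB-231, a triple-negative human breast cancer line, that colonises the lung readily. The labels name each population only as Ctrl or TMEM216. They do not state how TMEM216 was altered, whether a population was 1 clone or a pool, how much IGF1 was given and for how long, and whether replicates were separate cultures. All p-values therefore reflect only how far these libraries vary, and that variation may be technical.

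TMEM216 encodes a small membrane protein of the ciliary transition zone, the gate at the base of the primary cilium, and mutations in it cause Joubert and Meckel syndromes. IGF1 is a growth factor that activates the receptor tyrosine kinase IGF1R and, through it, the PI3K-AKT and ERK pathways. Many of the genes described here are targets of ATF4, a transcription factor whose mRNA is translated preferentially when the initiation factor eIF2 is phosphorylated under stress and which switches on amino acid synthesis, amino acid import and stress effectors.

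TMEM216 transcript itself lay at 163 to 249.6 TPM (median 223) in the TMEM216 libraries, against 24 to 30.1 TPM (median 26.3) in the Ctrl libraries. Every TMEM216 library was above every Ctrl library (exact two-sided permutation over 924 splits, p = 0.00216, the least possible value). The averaged difference was 2.97 on the log2(TPM + 1) scale used throughout (SE 0.098, limma with Benjamini-Hochberg adjusted p = 1.38e-08), with 2.94 without IGF1 and 3.01 with IGF1. TPM is a length-scaled transcript abundance, sequencing depth is unknown, and low genes change by more than differences on this scale show.

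All 8 markers of mesenchymal, basal B breast cancer lines were detected, and their summed level was 7787 to 8780 TPM in TMEM216 libraries and 7078 to 8185 TPM in Ctrl libraries. Of 8 leukocyte markers, 6 stayed below 1 TPM in all libraries, with CD3E and MS4A1 listed at 0, as did all 5 erythroid, 5 of 7 endothelial and 4 of 5 adipocyte markers. Luminal breast markers were mostly absent too (5 of 8 below 1 TPM in all libraries). Ctrl+IGF1 replicate 3 and TMEM216 replicate 1 stood farthest out on one side of the first principal component (22% of the variance), and ribosomal protein genes took 12.83% to 14.54% of TPM in TMEM216 libraries and 12.37% to 16.86% in Ctrl libraries. Leaving out both of these libraries raised the count of called features to 1061, of which 623 were shared with the 682 described next.

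Across 13071 tested features, 262 were higher in TMEM216 libraries (2.00%) and 420 were lower (3.21%), 682 in all (5.22%), where a feature is called at a limma adjusted p under 0.05. The differences were mostly small. The median log2 difference was 0.37 among the features called higher and -0.38 among those called lower, against -0.00054 over all features tested. Only 50 of the higher features (0.383% of those tested) exceeded a log2 difference of 0.5, and 110 of the lower ones (0.842%) were below -0.5. Beyond a log2 difference of 1 in size there were 2 higher features and 20 lower ones. All 6 TMEM216 libraries lay above all 6 Ctrl libraries in 165 of the 262 higher features, where 1.97% of all tested features had that order, and below them in 257 of the 420 lower ones, where 2.42% had it. The balance of directions depended on the scaling, since the count of higher features was 461 after quantile normalization and 431 after median-of-ratios scaling. Leaving out 1 library gave between 392 and 906 called features, and 332 of the 682 were called in each of the 12 such fits.

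**Figure D1:**
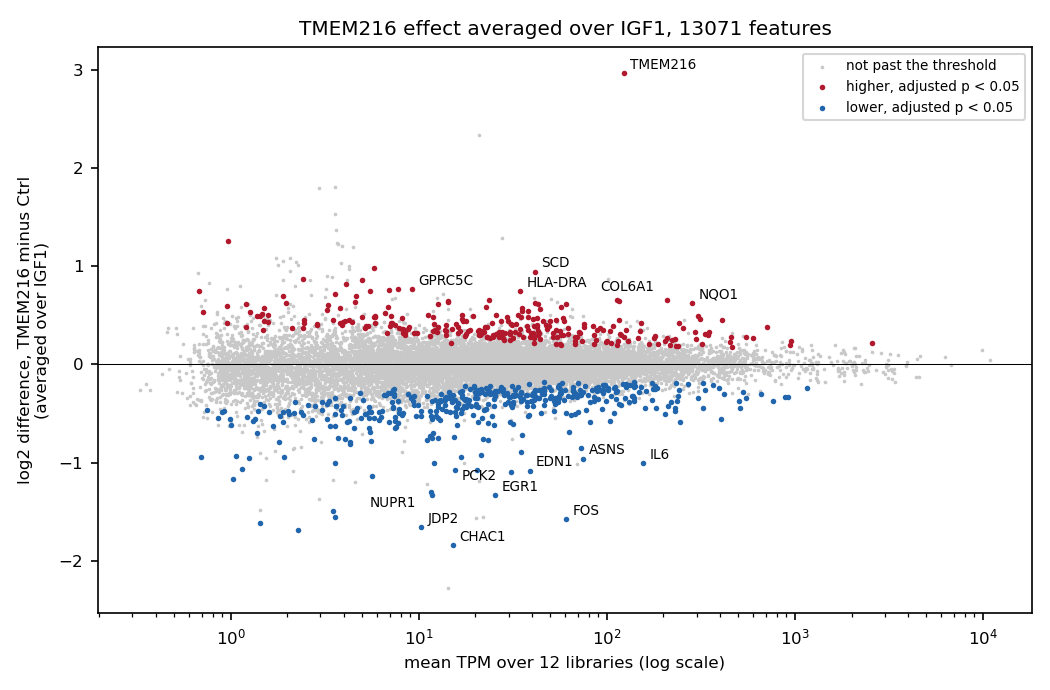
Each point is 1 of 13071 features, with its mean TPM over 12 libraries on a log scale (x axis) and its averaged log2 difference, TMEM216 minus Ctrl (y axis). Red points (262) were called higher and blue points (420) lower at adjusted p under 0.05; TMEM216 stands alone at 2.97 and the large differences lie mostly below 0.

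The average rests on 2 contrasts that have no library in common, TMEM216 minus Ctrl and TMEM216+IGF1 minus Ctrl+IGF1. The first alone called 143 features (1.09%), 20 of them higher (0.153% of all tested) and 123 lower (0.941%), and the other 211 (1.61%), 120 higher (0.918%) and 91 lower (0.696%). Of the 143 features called without IGF1, 139 (97.2%) differed in the same direction with IGF1, and 116 of them also had an unadjusted p under 0.05 there. Of the 211 called with IGF1, 206 (97.6%) differed in the same direction without IGF1, 161 of them at an unadjusted p under 0.05. Over all features tested, 57.4% had the same sign in both contrasts. The median difference over all features was itself -0.048 without IGF1 and 0.048 with IGF1, which bears on the balance of directions in each condition. Across features the 2 sets of differences had a Pearson correlation of 0.335 (Spearman 0.368), given as a description since features are not independent and all share one normalization.

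Averaging narrowed the standard error, with a median of 0.091 for the average and 0.13 for 1 condition. Of the 682 features called on the average, 61 were also called in both conditions, 78 only without IGF1, 142 only with IGF1, and 401 in neither. The 401 comprised 141 higher and 260 lower features with a median absolute log2 difference of 0.33. Another 12 features were called in 1 condition but not on the average. A call in 1 condition alone is no evidence of a difference between conditions. The test of that difference, the interaction, called 2 features (0.0153%). They were FOS, with a negative interaction, and the unnamed gene ENSG00000273049, with a positive one (0.00765% each). Of the 682, 101 had an unadjusted interaction p under 0.05. The share over all tested features is not given here. Few interaction calls do not show that the effect was equal in both conditions.

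**Figure D2:**
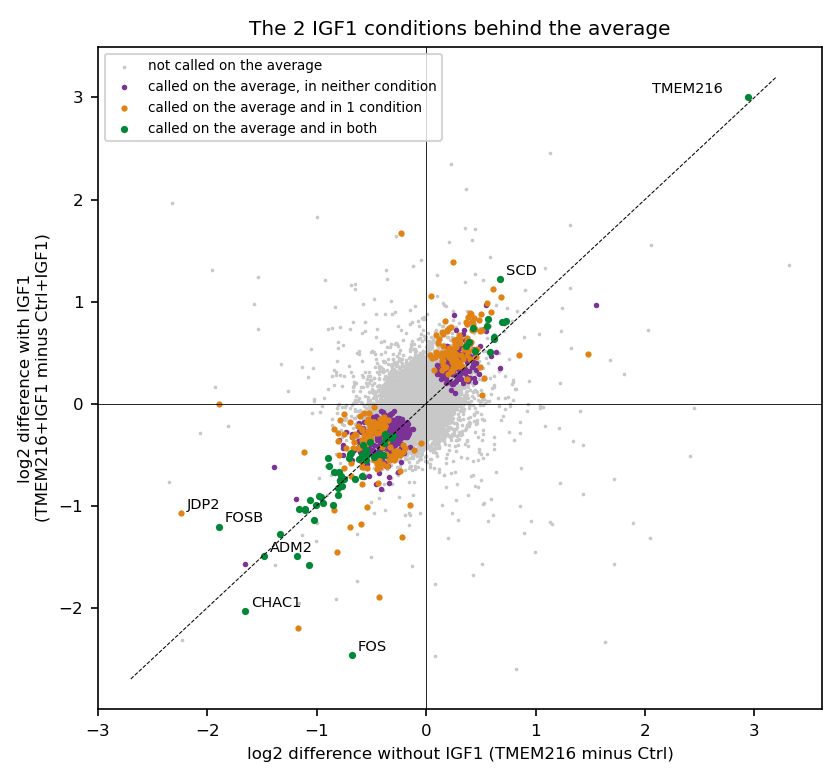
Each point is 1 feature, with its log2 difference without IGF1 (TMEM216 minus Ctrl, x axis) and with IGF1 (TMEM216+IGF1 minus Ctrl+IGF1, y axis); the dashed line marks equal differences. Green points (61) were called on the average and in both conditions, orange in 1 condition (220), purple in neither (401); nearly all lie where both differences have the same sign, and FOS lies far below the line.

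Many genes of the ATF4 programme fell. Among ATF4 and its stress effectors, 15 of 23 tested members fell and 0 rose, with a list median of -0.42. Of 20 enzymes of amino acid synthesis and one-carbon metabolism, 10 fell and 0 rose (median -0.31), and of 12 ATF4-linked amino acid transporters 5 fell and 0 rose (median -0.25). Cytosolic aminoacyl-tRNA synthetases, which charge tRNAs for translation, fell in 8 of 20 (median -0.13), against 1 of 17 mitochondrial synthetases (median -0.016). Across all features tested 3.21% fell. With 1 library left out the falling members numbered 14 to 16 effectors, 8 to 11 enzymes, 4 to 8 transporters and 5 to 10 cytosolic synthetases.

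The promoters of 4 of these falling genes are shown because they hold a match to the C/EBP-ATF response element (CARE), the composite site that ATF4 binds with C/EBP partners. Each is the 250 bases before 1 RefSeq transcription start of the gene (GRCh38.p14), and any other start of the gene was not searched. They are printed 5′ to 3′ on the strand of the gene, with the match to TGATGNAAN on either strand in capitals. CHAC1 is at chr15:40953221-40953470 (+ strand), ASNS at chr7:97872409-97872658 (- strand), ATF3 at chr1:212565157-212565406 (+ strand) and AARS1 at chr16:70289507-70289756 (- strand).
CHAC1: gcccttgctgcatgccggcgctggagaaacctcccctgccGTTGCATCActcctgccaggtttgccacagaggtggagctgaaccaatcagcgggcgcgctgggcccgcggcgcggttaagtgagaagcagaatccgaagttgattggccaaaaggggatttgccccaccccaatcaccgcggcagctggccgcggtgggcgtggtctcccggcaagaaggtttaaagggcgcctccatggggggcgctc
ASNS: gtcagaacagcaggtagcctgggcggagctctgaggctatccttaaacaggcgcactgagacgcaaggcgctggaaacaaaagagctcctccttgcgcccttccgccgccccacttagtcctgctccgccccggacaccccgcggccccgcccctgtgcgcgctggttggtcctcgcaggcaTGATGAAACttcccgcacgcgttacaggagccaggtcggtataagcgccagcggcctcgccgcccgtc
ATF3: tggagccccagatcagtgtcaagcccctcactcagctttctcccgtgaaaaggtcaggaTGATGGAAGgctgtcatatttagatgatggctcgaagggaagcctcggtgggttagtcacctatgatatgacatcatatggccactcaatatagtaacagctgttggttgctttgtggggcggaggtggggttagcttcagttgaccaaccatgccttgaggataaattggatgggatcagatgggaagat
AARS1: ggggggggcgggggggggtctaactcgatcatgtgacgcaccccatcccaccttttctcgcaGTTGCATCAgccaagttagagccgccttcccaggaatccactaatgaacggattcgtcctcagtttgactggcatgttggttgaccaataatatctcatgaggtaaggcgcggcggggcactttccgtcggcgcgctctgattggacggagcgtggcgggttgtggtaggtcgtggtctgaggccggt
The match begins 210 bases before the start in CHAC1, 68 in ASNS, 191 in ATF3 and 188 in AARS1; in CHAC1 and AARS1 it is on the opposite strand. AARS1, the alanyl-tRNA synthetase, kept its call in 6 of the 12 fits without 1 library, and CHAC1, ASNS and ATF3 kept theirs in all 12. Windows of 250 bases before to 50 after the start were searched for the motif. It was found in 7 of the 31 called members of the 4 lists that had a window (22.6%). It was found in 15 of the 62 tested members that had one (24.2%). Among the windows of all tested features the share was 1.62%, and among all 27305 RefSeq windows 3.67%. By these counts, called members held it about as often as all tested members did.

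CHAC1, a glutathione-degrading enzyme and ATF4 target, had the lowest averaged difference of the named genes. It lay at 4.94 to 7.38 TPM (median 5.57) in TMEM216 libraries, against 18.6 to 29.8 TPM (median 24.3) in Ctrl libraries (log2 -1.84, SE 0.11, adjusted p = 1.06e-06). Its groups did not overlap, and the fall was present without IGF1 (-1.65) and with it (-2.03). ADM2, a secreted peptide of the calcitonin family, lay at 1.08 to 1.54 TPM (median 1.38) in TMEM216 libraries and 5.1 to 6.31 TPM (median 5.6) in Ctrl libraries (log2 -1.49, adjusted p = 1.06e-06). TRIB3, a pseudokinase that restrains AKT and ATF4, lay at 10.6 to 13.7 TPM (median 13.2) in TMEM216 libraries and 26.8 to 29.4 TPM (median 27.9) in Ctrl libraries (log2 -1.07, adjusted p = 1.99e-06). Neither gene had overlapping groups, and both fell almost equally without IGF1 (-1.49 and -1.11) and with it (-1.49 and -1.04). SESN2, a leucine sensor that inhibits mTORC1, lay at 6.27 to 8.64 TPM (median 7.81) in TMEM216 libraries and 15 to 17.7 TPM (median 16.5) in Ctrl libraries (log2 -1.0). NUPR1, a stress-induced chromatin protein, lay at 3.76 to 8.4 TPM (median 6.7) in TMEM216 libraries and 15 to 22 TPM (median 16) in Ctrl libraries (log2 -1.33). ATF4 transcript itself fell less, to 559 to 623 TPM (median 596) in TMEM216 libraries, against 646 to 815 TPM (median 740.0) in Ctrl libraries (log2 -0.30, adjusted p = 0.0108), and this call was lost under median-of-ratios scaling. DDIT3 (CHOP, log2 -0.49), ATF3 (-0.69), GDF15 (-0.64), BBC3 (-0.65) and PPP1R15A, a subunit that directs a phosphatase to eIF2 (-0.42), fell as well.

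Among the enzymes, CTH, which makes cysteine from cystathionine, fell to 5.64 to 6.85 TPM (median 6.1) in TMEM216 libraries, against 13.8 to 19.4 TPM (median 16.6) in Ctrl libraries (log2 -1.31, SE 0.089, adjusted p = 6.20e-06). PCK2, the mitochondrial phosphoenolpyruvate carboxykinase, fell to 18.3 to 21.5 TPM (median 19.1) in TMEM216 libraries, against 36.5 to 48.4 TPM (median 43) in Ctrl libraries (log2 -1.10, adjusted p = 3.65e-07). ASNS, asparagine synthetase, fell to 41.4 to 58.4 TPM (median 50.5) in TMEM216 libraries, against 81.1 to 116 TPM (median 99) in Ctrl libraries (log2 -0.96, adjusted p = 9.44e-07). None of the 3 had overlapping groups. GPT2, an alanine aminotransferase, fell by 0.77, and the serine pathway fell in order of size at PSPH (-0.71), PSAT1 (-0.44) and PHGDH (-0.31). PYCR1, which makes proline, fell by 0.47. These 8 enzymes kept their calls in each of the 12 fits without 1 library; the other called members, SHMT2 (-0.31) and MTHFD2 (-0.49), did not.

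The called amino acid transporters were all lower. SLC3A2, the heavy chain that LAT1 and the cystine importer need at the cell surface, lay at 389 to 478 TPM (median 432) in TMEM216 libraries and 535 to 624 TPM (median 593) in Ctrl libraries (log2 -0.45, adjusted p = 3.54e-04). SLC1A5, which imports glutamine, lay at 168 to 218 TPM (median 197) in TMEM216 libraries and 239 to 329 TPM (median 307) in Ctrl libraries (log2 -0.59, adjusted p = 9.24e-04). Neither gene had overlapping groups, and the glycine transporter SLC6A9 (-0.75) and the neutral amino acid transporter SLC1A4 (-0.75) fell further. Of the synthetases, GARS1 (-0.47), MARS1 (-0.38), CARS1 (-0.37) and YARS1 (-0.32) fell by less than the leading enzymes, with adjusted p between 0.00227 and 0.0105.

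**Figure D3:**
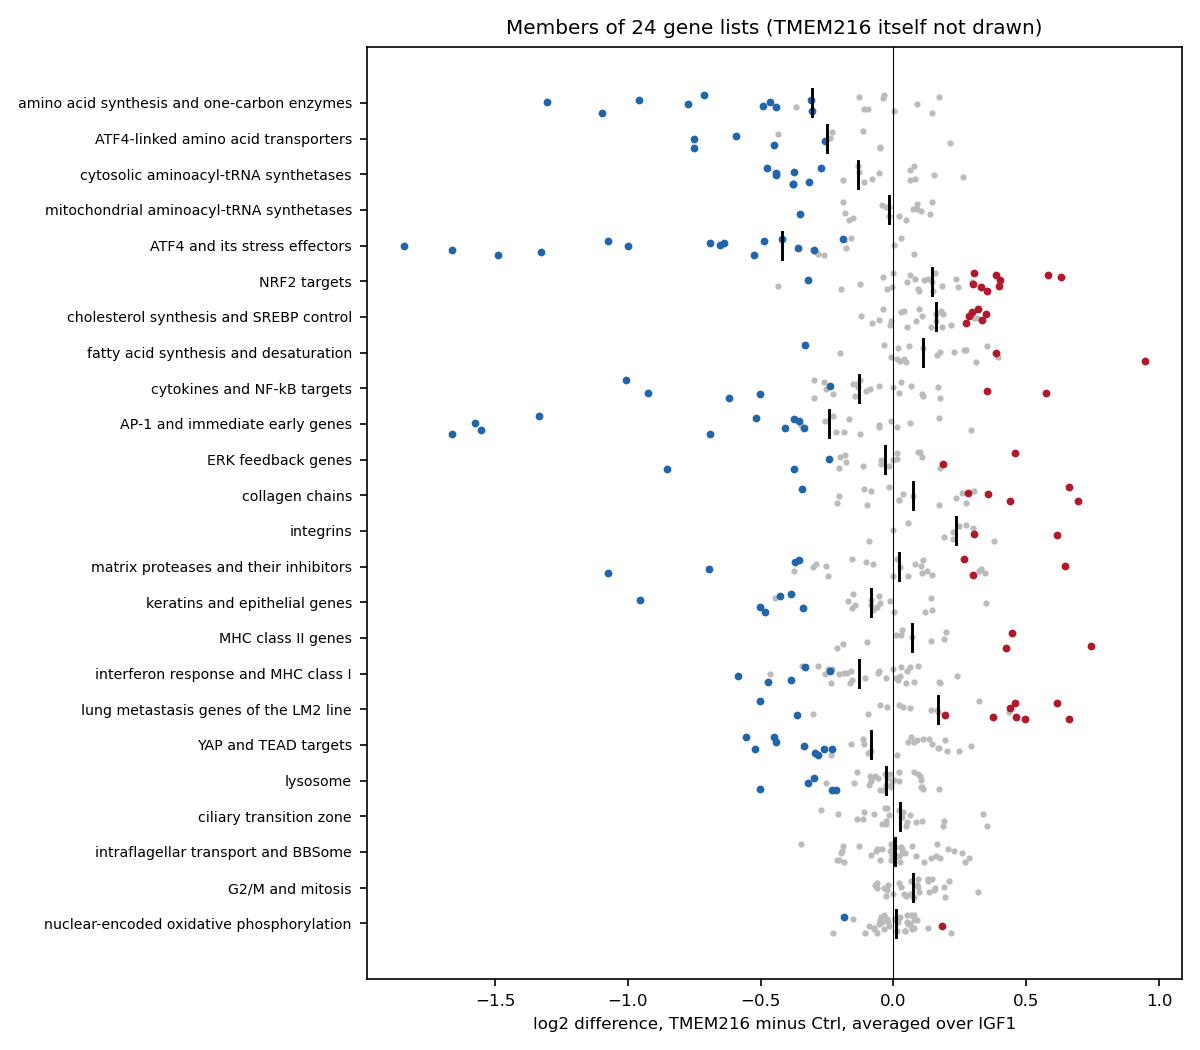
Each point is 1 tested member of a gene list, placed at its averaged log2 difference, TMEM216 minus Ctrl (x axis); red points were called higher, blue lower, grey not called, and the black bar is the median of the list. The amino acid enzyme and ATF4 effector lists have the lowest medians drawn, -0.31 and -0.42. The immediate early list (median -0.24) also reaches far below 0, with JDP2 at -1.66. The ciliary, mitotic and oxidative phosphorylation lists gather around 0.

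Among secreted inflammatory genes more calls were lower than higher, as over all features tested, where 3.21% fell and 2.00% rose. Of 28 tested cytokines and NF-kB targets, 5 fell and 2 rose (list median -0.13). All of these calls held in each fit without 1 library. IL6, the interleukin 6 gene, lay at 89.3 to 116 TPM (median 104) in TMEM216 libraries, against 192 to 232 TPM (median 205) in Ctrl libraries (log2 -1.01, SE 0.043, adjusted p = 1.61e-07). IL24 lay at 12.4 to 18.7 TPM (median 14.1) in TMEM216 libraries, against 25.1 to 32.4 TPM (median 28.1) in Ctrl libraries (log2 -0.92, adjusted p = 1.17e-04). CXCL1, a neutrophil chemokine, lay at 156 to 177 TPM (median 169.5) in TMEM216 libraries, against 227 to 255 TPM (median 238) in Ctrl libraries (log2 -0.50, adjusted p = 1.17e-04). All 3 were separated without overlap between the sides. The interleukin 1 genes also fell, IL1A by 0.62 and IL1B, at a median of 1054 TPM in TMEM216 libraries and 1231 TPM in Ctrl libraries, by 0.24. The 2 that rose were CSF1, the macrophage growth factor (0.58), and PTX3, a soluble pattern recognition protein (0.35). EDN1, the precursor of the vasoconstrictor endothelin 1 and the 1 called of 4 tested endothelin genes, fell to 19.9 to 31.8 TPM (median 23.4) in TMEM216 libraries, against 44.5 to 61 TPM (median 53.6) in Ctrl libraries (log2 -1.08, adjusted p = 3.88e-07). Of 11 prostaglandin genes 1 rose and 1 fell. PTGES, the inducible prostaglandin E synthase, rose by 0.31, and PTGS2, the cyclooxygenase upstream of it, fell by 0.36, a call that held in 8 of 12 fits without 1 library; the sides overlapped for both.

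Immediate early genes are switched on within minutes by growth factors and stress, through ERK and other kinases. Of 24 tested members 10 fell and 0 rose (median -0.24), where 3.21% of all features fell and 2.00% rose. In each fit without 1 library 9 of the 10 calls held. EGR1 lay at 8.77 to 21.3 TPM (median 13.3) in TMEM216 libraries, against 28.1 to 44.8 TPM (median 36.5) in Ctrl libraries (log2 -1.33, SE 0.089, adjusted p = 5.26e-06). FOSB lay at 0.603 to 1.74 TPM (median 1.23) in TMEM216 libraries, against 2.58 to 9.83 TPM (median 6.00) in Ctrl libraries (log2 -1.55, adjusted p = 9.66e-06). JDP2, a repressor that dimerises with AP-1 proteins, lay at 3.02 to 6.07 TPM (median 3.97) in TMEM216 libraries, against 6.27 to 25.9 TPM (median 18.3) in Ctrl libraries (log2 -1.66, adjusted p = 0.00174). The sides were separate for all 3, although the highest TMEM216 library came close to the lowest Ctrl library for JDP2. JUNB (-0.41), KLF4 (-0.52), CCN1 (-0.34) and IER3 (-0.37) fell by less. Of 20 ERK feedback genes 3 fell and 2 rose, with DUSP1, a phosphatase of MAP kinases, at -0.85 and SPRY1, an inhibitor of receptor tyrosine kinase signalling, at 0.46. The AP-1 site TGANTCA was searched on both strands. It was found in 0 of 8 called immediate early members with a promoter window and 1 of 17 tested ones (5.88%). Among the windows of all tested features the share was 4.36%, and among all windows 7.76%. None of 14 genes of the EGF receptor family and its ligands passed the limma threshold. An unadjusted p under 0.05 was found for 7 of the 14, against 20.07% of all features tested.

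FOS, a core subunit of AP-1, differed between the 2 conditions. It lay at 76.4, 59.6 and 56.7 TPM in the TMEM216 libraries, against 108, 101 and 99.7 TPM in the Ctrl libraries. With IGF1 it lay at 11.3, 10.03 and 11.7 TPM in the TMEM216+IGF1 libraries, against 69.2, 66.8 and 60.5 TPM in the Ctrl+IGF1 libraries. The groups separated within each condition, but the pooled sides overlapped because TMEM216 replicate 1 exceeded all Ctrl+IGF1 libraries. The log2 difference was -0.68 without IGF1 and -2.47 with IGF1, and the interaction of -1.79 passed the threshold (SE 0.15, limma adjusted p = 9.65e-04), so that the average of -1.57 describes neither condition.

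**Figure D4:**
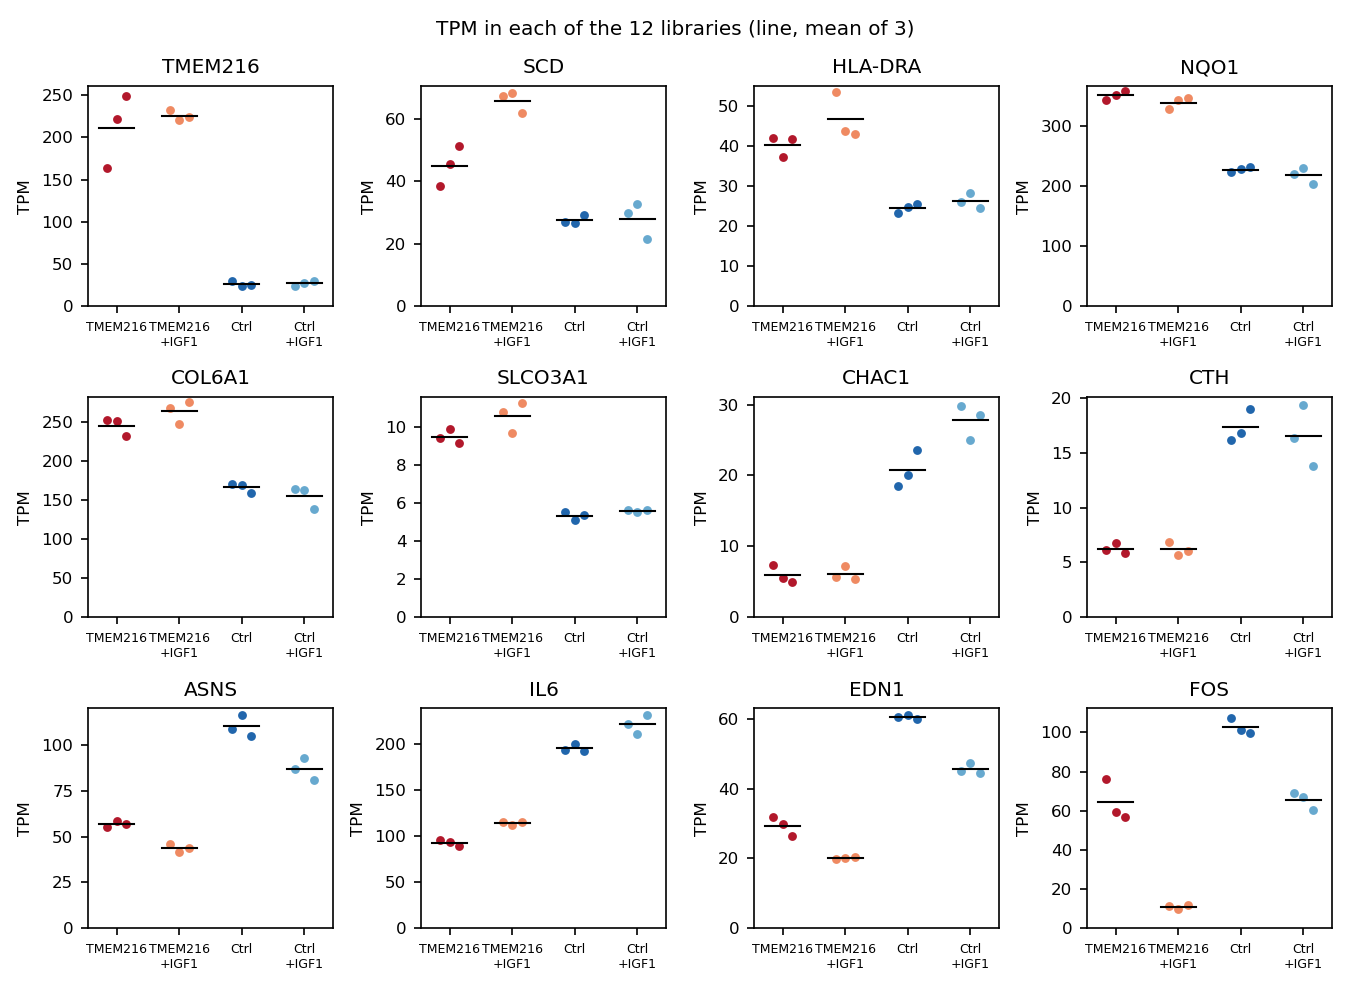
TPM of 12 genes in each of the 12 libraries (y axes start at 0, points are libraries, lines are means of 3). TMEM216, SCD, HLA-DRA, NQO1, COL6A1 and SLCO3A1 are higher on the TMEM216 side in every library, CHAC1, CTH, ASNS, IL6 and EDN1 lower, and FOS falls to about 11 TPM in TMEM216+IGF1.

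NRF2 is the transcription factor that answers oxidative and electrophilic stress with reductases and NADPH-producing enzymes, and 9 of its 31 tested targets rose while 1 fell (median 0.15), where 2.00% of all features rose. Between 5 and 9 rose with 1 library left out. NQO1, a quinone reductase, lay at 328 to 359 TPM (median 345) in TMEM216 libraries, against 204 to 231 TPM (median 226) in Ctrl libraries (log2 0.63, SE 0.044, adjusted p = 6.68e-06). AKR1C3, an aldo-keto reductase that acts on steroids and prostaglandins, lay at 62.4 to 78.4 TPM (median 68) in TMEM216 libraries, against 40.1 to 49.1 TPM (median 45.9) in Ctrl libraries (log2 0.58, adjusted p = 9.73e-05). TKT, of the pentose phosphate pathway (0.33), and GCLM, a subunit of the enzyme that starts glutathione synthesis (0.40), also rose without overlap between the sides. The single fall was HMOX1, haem oxygenase 1 (-0.32, adjusted p = 0.0283), a call that held in 5 of 12 fits without 1 library. The antioxidant response element core TGACNNNGC was searched on both strands. It was found in 2 of 7 called members with a promoter window (28.6%) and 5 of 23 tested ones (21.7%). Among the windows of all tested features the share was 15%, and among all windows 13.6%.

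Some lipid synthesis genes rose, while most did not pass, where 2.00% of all features rose and 3.21% fell. Cholesterol synthesis and SREBP control, which supply the sterol of membranes, had 6 of 27 members higher and 0 lower (median 0.16), of which 3 to 6 rose with 1 library left out. The list median was 0.0087 without IGF1 and 0.26 with it, where the median over all features tested was -0.048 and 0.048. The difference between the conditions was not tested. IDI1 (0.30), INSIG1, the sterol-regulated anchor of the SREBP pathway (0.33), and MVD (0.28) held in each such fit. SCD, the desaturase that makes oleate from stearate, had the largest rise of the named genes after TMEM216. It lay at 38.5 to 68.3 TPM (median 56.6) in TMEM216 libraries, against 21.7 to 32.8 TPM (median 28.1) in Ctrl libraries (log2 0.95, SE 0.098, adjusted p = 2.19e-04), without overlap. Its difference was 0.68 without IGF1 and 1.22 with it, and the interaction did not pass (0.54, adjusted p = 0.754). The fatty acid list otherwise had 1 more rise and 1 fall among 21 (median 0.11), with 5 rises under each of the other scalings.

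Calls among extracellular matrix and adhesion genes lay in both directions, where 2.00% of all features rose and 3.21% fell. Of 21 collagen chains 5 rose and 1 fell (median 0.076), and 3 of the rises and the fall held in each fit without 1 library. COL6A1 lay at 232 to 275 TPM (median 252) in TMEM216 libraries, against 139 to 171 TPM (median 163) in Ctrl libraries (log2 0.66, SE 0.055, adjusted p = 3.23e-05), and its partner chain COL6A3 rose by 0.69. COL18A1, the source of endostatin, rose by 0.44, while COL1A1, a chain of fibrillar collagen I, fell by 0.34. Matrix proteases and their inhibitors had 3 of 28 higher and 4 lower. TIMP3, a matrix-bound inhibitor of metalloproteases, lay at 105 to 165 TPM (median 145) in TMEM216 libraries, against 71.6 to 102 TPM (median 92.3) in Ctrl libraries (log2 0.65, adjusted p = 0.00238). Its difference was 0.40 without IGF1 and 0.89 with it, and the interaction did not pass (limma adjusted p = 0.754). MMP3, stromelysin 1, lay at 7.92 to 11.4 TPM (median 9.7) in TMEM216 libraries, against 19.9 to 24.6 TPM (median 21.3) in Ctrl libraries (log2 -1.07, adjusted p = 1.92e-05). In the plasminogen system the inhibitor SERPINB2 (-0.69) and the activator PLAT (-0.36) fell and the urokinase receptor PLAUR rose (0.30). Of 12 integrins 2 rose and 0 fell (median 0.24), ITGB4 by 0.30 and ITGA2 by 0.62. The list median was 0.061 without IGF1 and 0.41 with it, and 0 members were called higher without IGF1 and 2 with it. The difference of the list between the conditions was not tested. The call of ITGA2 held in 7 of 12 fits without 1 library, and 4 integrins were called under each of the other scalings.

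Some epithelial and antigen presentation genes also changed, where 3.21% of all features fell and 2.00% rose. Of 23 keratins and epithelial genes 6 fell and 0 rose (median -0.085), among them KRT8 (-0.34), KRT19 (-0.39) and the surface glycoprotein CD24 (-0.48), each without overlap. The summed luminal markers lay at 91.9 to 106 TPM in TMEM216 libraries and 118 to 147 TPM in Ctrl libraries, but nearly all of the sum was XBP1 (-0.50). The sides overlapped for GATA3 and SPDEF, and the other 5 luminal markers stayed below 1 TPM. The part of these markers in the keratin result was not tested. In bulk RNA, fewer cells of a type and less RNA per cell cannot be told apart. MHC class II genes, which present antigen to CD4+ T cells, rose in 3 of 13. The list median was -0.0031 without IGF1 and 0.29 with it, and the difference between the conditions was not tested. Of the 3 genes that rose, HLA-DRB1 kept its call in 4 of the 12 fits without 1 library, and HLA-DRA and CD74 kept theirs in all 12. HLA-DRA lay at 37.1 to 53.5 TPM (median 42.5) in TMEM216 libraries, against 23.3 to 28.3 TPM (median 25.2) in Ctrl libraries (log2 0.75, SE 0.07, adjusted p = 9.65e-05). CD74, the invariant chain, lay at 228 to 307 TPM (median 285) in TMEM216 libraries, against 189 to 217 TPM (median 209.7) in Ctrl libraries (log2 0.42, adjusted p = 0.00323). Both groups of libraries were separate for HLA-DRA and CD74. The summed leukocyte markers, nearly all CD68, lay at 142 to 206 TPM in TMEM216 libraries and 171 to 214 TPM in Ctrl libraries. Among them CD14 lay at 1.72 to 3.94 TPM in TMEM216 libraries and 1.47 to 2.15 TPM in Ctrl libraries. Interferon and MHC class I genes went the other way, with 5 of 36 lower and 0 higher (median -0.13), including HLA-E (-0.39) and the peptide transporter TAP1 (-0.59). Of these 5 calls 3 held in each fit without 1 library.

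The endoplasmic reticulum list split. The chaperone HSP90B1 rose to 712 to 915 TPM (median 797) in TMEM216 libraries, against 546 to 646 TPM (median 626) in Ctrl libraries (log2 0.38, adjusted p = 0.00108). XBP1, a transcription factor of the unfolded protein response, fell to 80.5 to 95.7 TPM (median 91.2) in TMEM216 libraries, against 106 to 134 TPM (median 132) in Ctrl libraries (log2 -0.50, adjusted p = 0.00122), and HERPUD1, which aids degradation of misfolded proteins, fell by 0.50. In all, 3 of 28 members rose and 2 fell, where 2.00% of all features rose and 3.21% fell. The rises numbered 7 under median-of-ratios scaling and 5 after quantile normalization.

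Genes of YAP and TEAD, the transcriptional arm of the Hippo pathway, fell in 9 of 29 tested members and rose in 0 (median -0.084). Over all features tested 3.21% fell and 2.00% rose. ANKRD1, a classical target, lay at 299 to 365 TPM (median 321) in TMEM216 libraries, against 418 to 525 TPM (median 485) in Ctrl libraries (log2 -0.55, SE 0.043, adjusted p = 1.76e-05), without overlap and almost equally without IGF1 (-0.55) and with it (-0.56). The factors TEAD3 (-0.52) and TEAD2 (-0.44) fell too. Between 5 and 10 of the list fell with 1 library left out, and other members, such as AMOTL2 and AJUBA, lost their calls in most of those fits. Genes associated with lung metastasis of this line rose in 8 of 22 and fell in 2 (median 0.17), where 4 to 8 rose with 1 library left out. IL13RA2, a decoy receptor of interleukin 13, lay at 333 to 391 TPM (median 367) in TMEM216 libraries, against 239 to 275 TPM (median 269) in Ctrl libraries (log2 0.46, adjusted p = 1.59e-04). ID1, an inhibitor of differentiation factors (0.46), and the guidance receptor ROBO1 (0.61) rose, while CXCL1, which is also on this list, fell. Of 14 metastasis suppressors 3 rose and 1 fell (median 0.11), where 1 to 5 rose with 1 library left out: TIMP3, described above, NDRG1 (0.49) and ARHGDIB (0.18) rose, and KISS1 fell by 0.61 with overlapping groups. Of 12 ephrins and Eph receptors 1 rose and 2 fell (median -0.088). The ephrin ligand EFNB2 rose by 0.65, and EFNA1 (-0.42) and EFNA3 (-0.48) fell, calls that held in 1 and 3 of the 12 fits without 1 library.

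In the IGF axis 2 of 16 tested members rose and 0 fell, where 2.00% of all features rose and 3.21% fell. The list median was -0.11 without IGF1 and 0.20 with it, and the difference between the conditions was not tested. IGFBP4, a protein that binds and restrains IGF1, lay at 928 to 1083 TPM (median 1009) in TMEM216 libraries, against 827 to 915 TPM (median 870.1) in Ctrl libraries (log2 0.20, adjusted p = 0.0089). PAPPA, the protease that cleaves IGFBP4, lay at 6.82 to 9.97 TPM (median 8.44) in TMEM216 libraries, against 3.44 to 6.08 TPM (median 5.82) in Ctrl libraries (log2 0.58, adjusted p = 0.0116). Neither had overlapping sides, and no other member, receptors and substrates included, passed.

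Cilium genes other than TMEM216 did not pass. Of the 25 other transition zone genes 0 were called by limma, and of 42 intraflagellar transport and BBSome genes, which build and service the cilium, 0 were called, with list medians of 0.024 and 0.0050. At an unadjusted p under 0.05 there were 3 transition zone genes, TMEM216 included, and 11 transport genes, where 2623 of all 13071 features were. SHH, the Hedgehog ligand, was the 1 of 10 Hedgehog members called, with 3.5 to 5.64 TPM (median 4.74) in TMEM216 libraries and 2.98 to 3.6 TPM (median 3.15) in Ctrl libraries (log2 0.43, adjusted p = 0.0154), and its groups overlapped. No call was made among 30 mitotic, 28 ribosome biogenesis and MYC target, 17 SRSF splicing factor and 12 S100 genes, with 6, 4, 7 and 2 at an unadjusted p under 0.05. Median-of-ratios scaling called 3 mitotic genes higher and quantile normalization 1.

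Other lists had few called members, to be read against the 2.00% of all features that rose and the 3.21% that fell, and several lie near those shares. Of 34 lysosome genes 5 fell and 0 rose, 4 of them called in neither condition, with MAP1LC3B, an autophagosome protein, at -0.32 and the sialidase NEU1 at -0.30. Of 28 p53 genes 4 fell and 0 rose, and these, SESN2, GDF15, GADD45A (-0.45) and BBC3, are stress genes of which 3 also stand in the ATF4 list. FOXO genes fell in 3 of 22, and EMT factors and mesenchymal genes in 2 of 18, TAGLN among them (-0.52). The hypoxia list had 2 of 23 higher and 3 lower, and glycolysis 2 of 23 higher and 1 lower. Laminins and matrix glycoproteins had 2 of 20 higher and 1 lower, and oxidative phosphorylation 1 of 38 in each direction. In each fit without 1 library, 0 of the laminin calls, 0 of the oxidative phosphorylation calls and 0 of the glycolysis rises held. The glycolysis fall and 1 hypoxia call in each direction did hold. Of the lysosome falls 2 held, and of the FOXO and EMT falls 1 each. In G1/S and DNA replication, 2 of 34 rose, with GINS2, a subunit of the replicative helicase, at 0.40, and 2 fell, with CCND2, cyclin D2, at -0.54. SLC16A1, the lactate transporter MCT1, fell to 0.55 to 1.51 TPM (median 0.976) in TMEM216 libraries, against 1.83 to 3.66 TPM (median 2.73) in Ctrl libraries (log2 -0.94, adjusted p = 0.00228), without overlap.

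Several of the largest differences belonged to no group above. SLCO3A1, an organic anion transporter, lay at 9.19 to 11.3 TPM (median 9.81) in TMEM216 libraries, against 5.1 to 5.66 TPM (median 5.55) in Ctrl libraries (log2 0.77, SE 0.065, adjusted p = 3.50e-05). GPRC5C, an orphan receptor induced by retinoic acid, lay at 10.1 to 15.2 TPM (median 11.6) in TMEM216 libraries, against 5.24 to 7.74 TPM (median 6.5) in Ctrl libraries (log2 0.77, adjusted p = 7.41e-04). DHRS3, a retinaldehyde reductase, lay at 4.93 to 8.27 TPM (median 7.72) in TMEM216 libraries, against 3.32 to 4.31 TPM (median 3.81) in Ctrl libraries (log2 0.75, adjusted p = 0.00174). All 3 were higher in every TMEM216 library than in any Ctrl library. CA12, a membrane carbonic anhydrase (0.64), DPYD, which degrades pyrimidines (0.61), and ADAM19, a membrane metalloprotease (0.58), rose in the same way. Among the falls, EEF1A2, a translation elongation factor, lay at 9.62 to 12 TPM (median 11.5) in TMEM216 libraries, against 20.9 to 25.4 TPM (median 21.7) in Ctrl libraries (log2 -0.94, adjusted p = 2.60e-05). C6orf132 lay at 1.64 to 4.82 TPM (median 3.48) in TMEM216 libraries, against 6.8 to 9.83 TPM (median 7.62) in Ctrl libraries (log2 -1.14, adjusted p = 9.28e-04). Both were lower in every TMEM216 library.

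The 401 features called on the average and in neither condition had the same sign in both conditions, and 10 of them had an unadjusted interaction p under 0.05; that selection itself favours differences of like size. The 10 named genes with the smallest p among them had adjusted p between 0.00428 and 0.00642 on the average, and none of them had overlapping sides. TKT, the transketolase of the pentose phosphate pathway, lay at 345 to 414 TPM (median 393) in TMEM216 libraries, against 289 to 339 TPM (median 307) in Ctrl libraries, a log2 difference of 0.33 that was 0.33 without IGF1 (adjusted p = 0.0759) and 0.33 with it (adjusted p = 0.0704). MAP1LC3B lay at 88.4 to 100.3 TPM (median 93.4) in TMEM216 libraries, against 109 to 125 TPM (median 119) in Ctrl libraries (-0.34 without IGF1 and -0.30 with it). PSMB8, an immunoproteasome subunit, lay at 56.1 to 66.5 TPM (median 61.3) in TMEM216 libraries, against 73.8 to 83.3 TPM (median 75.7) in Ctrl libraries (-0.35 and -0.32). For each of these the difference in 1 condition missed the threshold, with 3 libraries a side. INHBA, a subunit of activin A (-0.54), LURAP1L (-0.54), IGSF8 (-0.41) and NSUN5, an RNA methyltransferase of the ribosome (-0.29), fell on the average, and TMEM97, a sterol-regulated membrane protein (0.30), and PPIG, a nuclear cyclophilin (0.33), rose. Over all called features 58.8% came only with the average. By list, 7 of the 10 calls among NRF2 targets, 4 of 6 in the cholesterol list and 5 of 9 in the YAP list came only with the average, against 2 of 15 among ATF4 effectors and 2 of 10 among the amino acid enzymes.

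**Figure D5:**
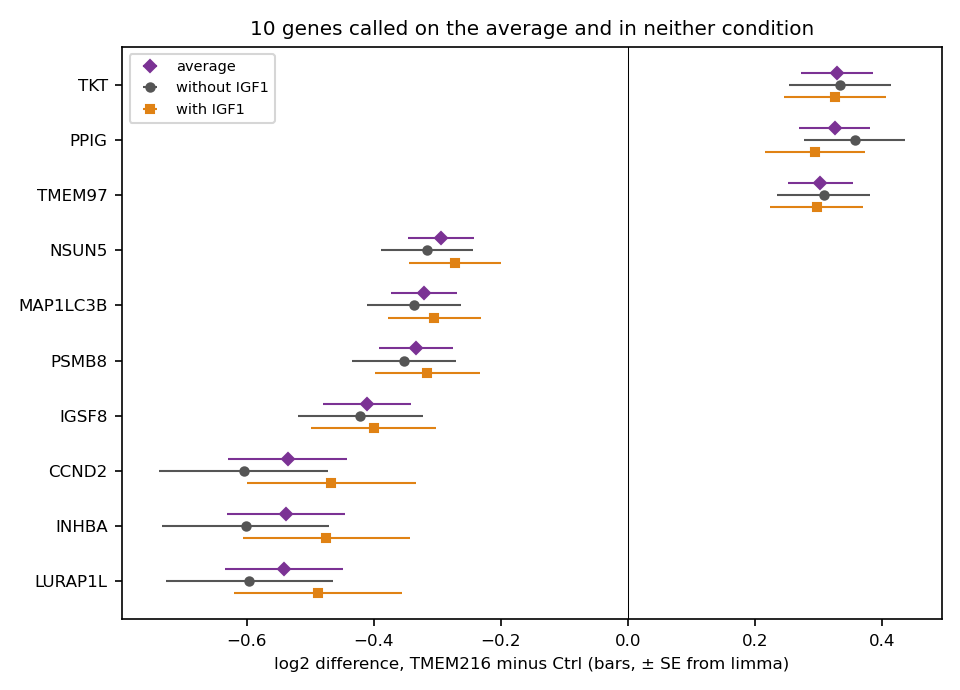
Log2 difference, TMEM216 minus Ctrl (x axis, bars ± SE from limma), for 10 genes called on the average and in neither condition; diamonds are the average, circles the difference without IGF1, squares with IGF1. The 3 estimates of each gene lie close together, and the bar of the average is the shortest.

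Leaving out 1 library at a time, 44 of the 45 named features kept their call in each of the 12 fits. Of all 682 called features 332 did so. Most named features were picked for large separated differences or small p in these same libraries, which favours keeping the call. Of the 5 named for the smallest interaction p, MAP1LC3A (interaction -1.09, adjusted p = 0.673) and the assembled features MSTRG.36.60 (adjusted p = 0.754) and MSTRG.13414.14 (adjusted p = 0.673) did not pass, and MSTRG.13414.14 was the feature whose averaged call did not hold. No source used here says whether counting used strand, so genes that overlap a neighbour are uncertain: PCK2, IL6, ADAM19, MAP1LC3B, TMEM97 and PSMB8 among the leading genes and FOSB, JUNB, DDIT3, MARS1, YARS1, SLC1A5, SLC6A9, HSP90B1, KRT8, COL18A1, ITGB4, PTX3, TAP1, TAGLN, GINS2 and MTHFD2 among the list members overlap another tested gene on the opposite strand.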

How the data were processed

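RNA of 12 libraries of the cell line MDA-231-LM2, 3 for each of 4 groups, was sequenced from Illumina TruSeq libraries, per the labels' protocols. The authors deposited TPM for 21574 features. HISAT2, StringTie and RSEM were used, per the submitters' processing notes, without versions; no source used here gives the genome build or read depth. TPM holds no counts, so no counting interval is given and depth cannot weight the libraries.

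From the deposited TPM, log2(TPM + 1) was computed without further scaling, keeping the 13071 features (519 of them assembled MSTRG features) that reached a TPM of 1 in 3 or more libraries. The 4 groups were fitted together in limma 3.58.1 (R 4.3.3, with files read by version 1.17.8 of the R package data.table) with a mean-variance trend and moderated variances. The averaged effect is the mean of the TMEM216 and TMEM216+IGF1 groups minus the mean of the Ctrl and Ctrl+IGF1 groups. The effect in each IGF1 condition and the interaction came from the same fit, so they share 1 estimate of the spread. Adjusted p is two-sided, after Benjamini-Hochberg over all 13071 features, with a threshold of 0.05. SE is the moderated standard error. The fit was tested on simulated data. Figures were drawn with matplotlib 3.10.9 and pandas 2.3.3 in Python 3.11.15.

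Named genes were up to 15 rises and 15 falls with the largest log2 difference among called features whose mean TPM was 5 or more, whose sides did not overlap and which had a gene symbol. Added to these were TMEM216, the 10 genes with the smallest p among those called only on the average, the 5 called features with the smallest interaction p, and up to 4 leading members of a list described; further list members were chosen after their values were seen. The 42 gene lists and the members were chosen with earlier results of these data known, so counts over lists are descriptions and no list was tested.

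The labels do not say whether replicate numbers pair the libraries, and the reported fit used no replicate block. Deviations from the group means correlated between -0.286 and 0.165 over 18 pairs of same-numbered libraries. Such values show no strong shared deviation but cannot tell whether same-numbered libraries were handled together. Overlapping genes were looked up in GENCODE v29, where 43 of 45 named features were found. Promoter windows were those of RefSeq (GRCh38.p14), matched by symbol. Alternatives were 2 other scalings, a pseudocount of 0.1, a minimum TPM of 5, no filter, no trend, a model without the interaction, a replicate block, and leaving out each library or the 2 libraries farthest out.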

Additional observations from a re-analysis of the deposited data

Results flagged for a closer look

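A pair of named features had an effect of TMEM216 that differed between the IGF1 conditions by the interaction test of limma (Benjamini-Hochberg adjusted). FOS fell further with IGF1, with an interaction of -1.79 on the log2 scale (adjusted p = 9.65e-04), and it was lower in all 3 TMEM216 libraries than in all 3 Ctrl libraries in each condition. The unnamed gene ENSG00000273049 was listed at 0 in all TMEM216, TMEM216+IGF1 and Ctrl+IGF1 libraries and at 1.90, 2.94 and 3.49 TPM in the 3 Ctrl libraries, with an interaction of 1.89 (adjusted p = 0.0445). It overlaps HOXC5 and HOXC6 on the same strand, so its value is uncertain, and its interaction call was lost under a pseudocount of 0.1, both other scalings and a replicate block.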

How the results depend on the processing

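The log2 difference of TMEM216 transcript stayed between 2.91 and 3.09 under all alternatives. Without both libraries farthest out on the first component, Ctrl+IGF1 replicate 3 and TMEM216 replicate 1, the average called 1061 features (686 lower), the contrast without IGF1 288 (53 higher, 235 lower) and the interaction 1 (0 higher). Higher features on the average numbered 461 after quantile normalization and 431 after median-of-ratios scaling, and without IGF1 60 and 55; features lower with IGF1 numbered 138 after quantile normalization. The interaction called 1 feature, 0 of them higher, under a pseudocount of 0.1, a minimum TPM of 5, both scalings and the replicate block, and 2 lower features without the mean-variance trend. The cause was not tested.

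With the replicate number as a block the average called 499 features, 488 of them among the 682, the contrast without IGF1 77 (11 higher, 66 lower) and that with IGF1 140 (77 higher). The numbers are not known to pair the libraries: 5 of 12 libraries correlated best with others of their own number, and 4 of 18 same-numbered pairs correlated above 0.1.

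Leaving out 1 library, the average called 392 to 906 features (149 to 456 higher, 243 to 565 lower; 31.0% to 50.3% of calls higher). The fewest calls came without Ctrl replicate 2 and the most without Ctrl+IGF1 replicate 2 (456 higher), while the 565 lower features and the lowest share of higher calls came without Ctrl+IGF1 replicate 3. The contrast without IGF1 called 43 to 273 (6 to 50 higher, 36 to 223 lower), that with IGF1 84 to 462 (43 to 308 higher, 39 to 154 lower), and the interaction 1 to 3 (0 to 1 higher, 1 to 2 lower). EDNRA, which did not pass, had a log2 difference between -0.0075 (without TMEM216+IGF1 replicate 2) and 0.092 (without Ctrl+IGF1 replicate 2). For the 44 named features other than TMEM216, 905 of the alternative values kept direction and call, 16 lost the call and 0 changed sign. TPM without depth limits what can be said of features of low abundance.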

Other observations

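Of the 682 features called on the average, 161 belonged to at least 1 of the gene lists and 521 to none. The following genes, chosen after their values were seen, were among 24 of these 521 ranked by smallest p. Named features, features without a gene symbol and those with a mean TPM under 5 were left out of that ranking. All 24 kept their call in each of the 12 fits without 1 library, which choosing by small p favours. HOXB9, a homeobox factor of body patterning, lay at 10.8 to 11.5 TPM (median 11.3) in TMEM216 libraries, against 18.2 to 21.8 TPM (median 19.1) in Ctrl libraries (log2 -0.74, limma adjusted p = 1.76e-05). TSC22D3, the glucocorticoid-induced leucine zipper protein, lay at 7.57 to 9.03 TPM (median 8.55) in TMEM216 libraries, against 13.9 to 15.6 TPM (median 14.3) in Ctrl libraries (log2 -0.73, adjusted p = 3.70e-05). MCAM, an adhesion molecule of the immunoglobulin family, lay at 51.5 to 71.1 TPM (median 67) in TMEM216 libraries, against 83.2 to 105 TPM (median 98.7) in Ctrl libraries (log2 -0.59, adjusted p = 7.33e-04). All 3 were lower in every TMEM216 library. RBCK1, a subunit of the linear ubiquitin ligase complex (-0.58), the growth factor midkine MDK (-0.50), the kinases PIM1 (-0.44) and PRKCZ (-0.42), the activin binding protein FSTL3 (-0.43) and SERINC2 (-0.76) fell as well.

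LAPTM5, a lysosomal membrane protein best known from blood cells, lay at 261 to 313 TPM (median 288) in TMEM216 libraries, against 199 to 233 TPM (median 224) in Ctrl libraries (log2 0.37, adjusted p = 7.33e-04). CDH4, retinal cadherin, lay at 36.8 to 42.7 TPM (median 39) in TMEM216 libraries, against 22.7 to 30.9 TPM (median 28.3) in Ctrl libraries (log2 0.51, adjusted p = 6.58e-04). Both were higher in every TMEM216 library. Of the leukocyte markers, PTPRC was at most 0.101 TPM in any library. CD14 lay at 1.72 to 3.94 TPM in TMEM216 libraries and 1.47 to 2.15 TPM in Ctrl libraries, and CD68 at 140 to 203 TPM and 169 to 212 TPM. COMMD10 (0.54), the peroxisomal oxidase ACOX2 (0.50), the organic anion transporter SLCO4A1 (0.42), TRIM16 (0.48) and the actin-binding protein TAGLN2 (0.31) rose.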
